A study of Mus musculus with 18 samples.

Results

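The 46 complement and coagulation genes described here are the clotting factors, their inhibitors, the fibrin-dissolving enzymes and the complement proteins, chosen by gene symbol from 10 functional groups. All 46 were found with the same Ensembl identifiers in both count tables, among 51826 genes listed for liver and 21959 listed for primary mouse embryonic fibroblasts (MEFs). The study examined mice carrying a homozygous deletion of repeat B of *Xist*, the long noncoding RNA that silences an X chromosome in female cells. RNA-seq counts were available for 3 RepB-/- and 3 WT livers and for 3 RepB-/- and 3 WT MEF libraries. The library names give the genotype by a letter and the replicate by a number, and they give neither strain, age, sex nor treatment. The labels call the MEFs a primary cell line with tail as the tissue, and whether the replicates of a group are separate animals or cultures is not stated, so p-values measure the spread between these libraries.

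Depth was between 37682201 and 51542709 counts per liver library and between 11540344 and 20587556 per MEF library. The deletion could not be read from whole-gene counts, and the MEF table used here has no row for *Xist*. In liver, *Xist* had between 14494 and 26345 counts in 5 libraries and 4 counts in replicate 2 labelled RepB-/-, which also held 4342 counts of Y-linked genes against at most 1 in any other liver. This is the pattern of a male library, and it is kept under the genotype that the letter in its name gives. Liver replicate 1 of both genotypes stood apart: 5 genes of fetal liver (*Afp*, *H19*, *Igf2*, *Dlk1* and *Gpc3*) summed to between 4753 and 5969.6 CPM (normalised counts scaled to a library size of 1000000) there and to between 4.50 and 20.2 in replicates 2 and 3. The 10 hepatocyte markers were all present in liver, with summed levels between 108893 and 201830.0 CPM, and summed to between 0.203 and 2.17 CPM in MEFs, where *Fabp1* was at 0. The 8 fibroblast markers were all present in MEFs, between 9682 and 17186 CPM.

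Coagulation is a chain of proteases that ends with thrombin cutting fibrinogen into fibrin, and plasmin later dissolves that fibrin. Complement is a related chain that is started by the classical, lectin or alternative pathway, meets at C3 and ends with a pore built of C5b, C6, C7, C8 and C9. Hepatocytes make most of these plasma proteins, while tissue factor, the plasminogen activators, thrombomodulin and some early complement proteins are also made by fibroblasts, endothelium and macrophages.

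None of the 46 genes lay on the X chromosome (0 on X, with members on 15 chromosomes). Several are neighbours in the liver table's coordinates (GRCm38). The fibrinogen genes *Fgg* (chr3:83007724-83015049), *Fga* (chr3:83026076-83033627) and *Fgb* (chr3:83040141-83049863) adjoin each other. So do *C8b* (chr4:104766317-104804548) and *C8a* (chr4:104815679-104876398), *C1ra* (chr6:124512405-124523443) and *C1s1* (chr6:124530345-124542359), and *Cfb* (chr17:34856374-34862518) and *C2* (chr17:34862604-34898265). The promoters of the fibrinogen genes, of the pore genes *C8a*, *C8b* and *C9* and of tissue factor (*F3*) are printed because they contrast the fibrinogen chains, which are abundant in liver, the pore genes past the threshold between livers of replicate 1 and the others, and the leading MEF member. The sequences are RefSeq's for GRCm38.p6, each 250 bases before and 50 bases after a gene's start, 5′ to 3′ on the gene's strand. Capitals mark the searched letters on either strand.

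Fga promoter, chr3:83025903-83026202, plus strand: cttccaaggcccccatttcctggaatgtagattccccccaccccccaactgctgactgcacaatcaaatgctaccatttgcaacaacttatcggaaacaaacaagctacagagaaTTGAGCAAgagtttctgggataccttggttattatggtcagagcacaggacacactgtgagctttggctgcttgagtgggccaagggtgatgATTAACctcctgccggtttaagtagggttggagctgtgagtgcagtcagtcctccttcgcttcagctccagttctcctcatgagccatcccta
Fgb promoter, chr3:83049814-83050113, minus strand: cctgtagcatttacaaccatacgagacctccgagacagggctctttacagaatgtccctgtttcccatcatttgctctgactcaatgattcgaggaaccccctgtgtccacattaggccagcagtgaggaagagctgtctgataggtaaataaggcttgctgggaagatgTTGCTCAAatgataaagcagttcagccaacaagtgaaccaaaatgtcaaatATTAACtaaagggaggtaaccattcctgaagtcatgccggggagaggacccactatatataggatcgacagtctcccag
Fgg promoter, chr3:83007474-83007773, plus strand: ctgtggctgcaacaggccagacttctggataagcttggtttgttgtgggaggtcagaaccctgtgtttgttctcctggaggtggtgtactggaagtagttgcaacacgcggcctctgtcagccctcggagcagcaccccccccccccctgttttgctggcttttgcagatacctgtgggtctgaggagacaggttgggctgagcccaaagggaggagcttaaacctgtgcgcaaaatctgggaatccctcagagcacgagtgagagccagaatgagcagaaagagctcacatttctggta
C8a promoter, chr4:104876349-104876648, minus strand: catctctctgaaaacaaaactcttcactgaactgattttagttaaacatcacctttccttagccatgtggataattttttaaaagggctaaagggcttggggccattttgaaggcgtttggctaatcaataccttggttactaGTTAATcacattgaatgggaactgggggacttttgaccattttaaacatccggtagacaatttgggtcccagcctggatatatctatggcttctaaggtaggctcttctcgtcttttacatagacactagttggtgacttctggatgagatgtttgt
C8b promoter, chr4:104766067-104766366, plus strand: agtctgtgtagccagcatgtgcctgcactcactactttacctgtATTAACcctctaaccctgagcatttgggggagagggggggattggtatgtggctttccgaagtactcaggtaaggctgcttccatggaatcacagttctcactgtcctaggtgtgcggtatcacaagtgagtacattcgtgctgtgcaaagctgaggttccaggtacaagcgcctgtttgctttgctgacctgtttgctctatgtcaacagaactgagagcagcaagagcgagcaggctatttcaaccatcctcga
C9 promoter, chr15:6445096-6445395, plus strand: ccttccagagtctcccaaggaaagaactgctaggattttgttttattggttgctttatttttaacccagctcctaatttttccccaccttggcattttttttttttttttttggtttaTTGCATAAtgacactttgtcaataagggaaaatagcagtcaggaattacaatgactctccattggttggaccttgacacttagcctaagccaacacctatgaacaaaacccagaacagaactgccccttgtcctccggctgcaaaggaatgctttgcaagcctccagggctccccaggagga
F3 promoter, chr3:121723287-121723586, plus strand: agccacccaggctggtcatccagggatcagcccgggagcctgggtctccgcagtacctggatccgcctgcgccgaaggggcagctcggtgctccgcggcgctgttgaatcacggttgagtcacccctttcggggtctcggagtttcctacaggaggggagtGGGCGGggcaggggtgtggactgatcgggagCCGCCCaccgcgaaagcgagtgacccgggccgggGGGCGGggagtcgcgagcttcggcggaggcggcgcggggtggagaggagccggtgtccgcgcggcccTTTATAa

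Of the 46 members, 32 matched this promoter table, which holds 32851 windows. GTTAAT, the core letters of a site of the hepatocyte factor HNF1, occurred in the windows of 8 of these 32 members (*C1ra*, *C8a*, *C8b*, *F13b*, *F2*, *Fga*, *Fgb* and *Vtn*) and in 7.10% of all windows. The C/EBP letters TTGCNNAA occurred in 10 of 32 members, among them *Fga*, *Fgb*, *C9* and *C3*, and in 10.8% of all windows. GGGCGG, the GC box, occurred in 5 of 32 members (*C1qc*, *F3*, *F5*, *Klkb1* and *Pros1*) and in 35.7% of all windows, and *F3* held it 3 times. TATAAA occurred in 4 of 32 members and in 13.6% of all windows. The longer HNF1 palindrome and the HNF4 letters CAAAGTCCA were in no member's window, and in 0.00913% and 0.475% of all windows. In *Fga* and *Fgb* the GTTAAT match began 43 and 29 bases upstream of the start, and in *Fgg* no searched letters were found. These matches are descriptions of the letters and not of binding.

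Members took between 4.74% and 6.54% of all counts in liver and between 0.188% and 0.291% in MEFs. In an edgeR quasi-likelihood fit of all 12 libraries, 39 of 46 members were higher in liver and 7 were lower (Benjamini-Hochberg adjusted p under 0.05), where 39.7% of the 15208 genes tested were higher and 37.5% were lower. Of the 39, 26 had too few MEF counts for a test within MEFs and entered this fit through their liver counts. The direction of their calls was fixed by that, as was that of *Cfd*, which entered through its MEF counts. The median log2 difference of the members was 11.78, or 9.91 with the 9 members at the MEF floor set to their bound, against 0.02 over all genes. The floor was 3 counts in a library. The liver and MEF tables rest on different genome builds and gene models, so a difference between tissues and one between tables cannot be told apart, and replicates of bulk tissue cannot separate fewer cells of a type from less RNA per cell. The 7 members lower in liver were *F3*, *Plat*, *Plau*, *Pros1*, *Thbd*, *Masp1* and *Cfd*.

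**Figure D1:**
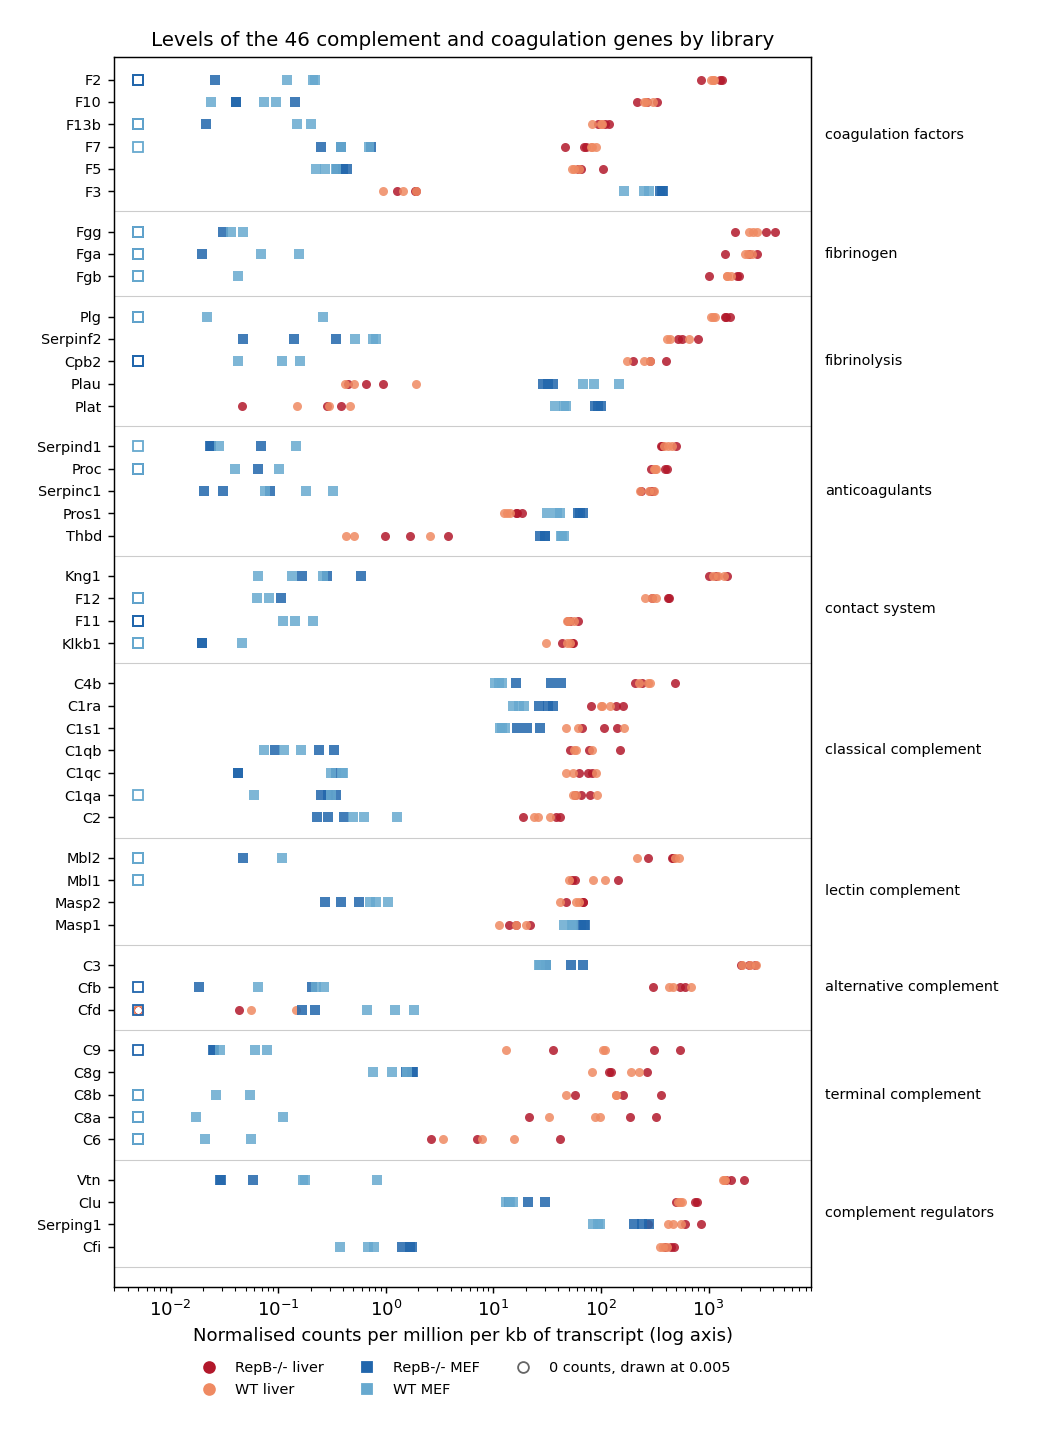
Level of each of the 46 members in each of the 12 libraries, as CPM per kb of transcript on a log axis, grouped by role; circles are livers, squares MEFs, and open symbols libraries with 0 counts drawn at 0.005. Most members sit to the right in liver, while *F3*, *Plat*, *Plau*, *Pros1*, *Thbd*, *Masp1* and *Cfd* sit to the right in MEFs.

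Levels between genes are compared as CPM per kb of the principal transcript, with the SD over the 6 libraries of a tissue. In liver the fibrinogen gamma chain *Fgg* was highest at 2853 ± 840.1, followed by *C3*, the protein on which all complement pathways meet, at 2385 ± 317, and *Fga* at 2266 ± 462. These 3 differed by less than their spread. Vitronectin (*Vtn*, 1571 ± 299), *Fgb* (1565 ± 327), plasminogen (*Plg*, 1295 ± 217), kininogen (*Kng1*, 1236 ± 177) and prothrombin (*F2*, 1124 ± 170.0) followed, each within the spread of its neighbour. Among the other groups the leaders in liver were heparin cofactor II (*Serpind1*, 417 ± 55.2), *C4b* (287 ± 102), mannose-binding lectin C (*Mbl2*, 405 ± 128) and *C9* (186 ± 206). *C9* had an SD above its mean. *Kng1* may share reads with its near-identical copy *Kng2*, so its level is uncertain.

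In MEFs tissue factor *F3*, the cell-surface starter of clotting, was the highest member at 298 ± 84.0 CPM per kb. *Serping1*, the C1 inhibitor, came next at 167 ± 85.7. The tissue plasminogen activator *Plat* (68.9 ± 28.4), urokinase *Plau* (66.3 ± 45.5), the lectin pathway protease *Masp1* (60.0 ± 10.4) and protein S (*Pros1*, 50.8 ± 15.3) followed, each within the spread of the next. With the gene lengths deposited in the MEF table, *Plau* was above *Plat*. These means pool the genotypes, in which the order of *Plat* and *Plau* was opposite, without overlap in either. In RepB-/- *Plat* had 101, 88.4 and 93.8 and *Plau* 28.6, 32.4 and 35.6 CPM per kb. In WT *Plat* had 37.5, 47.0 and 45.5 and *Plau* 147, 68.2 and 86.1 CPM per kb. *C3* stood at 39.4 ± 17.1 and *C1ra* at 24.5 ± 8.40. The leading members of the fibrinogen, contact and terminal groups in MEFs were *Fga* (0.0406 ± 0.0621), *Kng1* (0.250 ± 0.184) and *C8g* (1.42 ± 0.395).

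The contrast between tissues was widest for hepatic genes that MEFs barely listed. *Fgb* was at 3 counts or fewer in every MEF library and at least 33615-fold higher in liver, and *Fgg* at least 27263-fold. *Proc*, *Klkb1*, *Mbl2*, *C8b* and *C9* were also at the floor, with bounds of at least 3034, 1395, 2486, 1897 and 2152-fold. *Mbl1* had 0 counts in all 6 MEF libraries and a bound of 729.5-fold, and *C6* a bound of 210.1-fold. The reverse was true of *F3*, whose liver levels were 2.39, 3.59 and 3.53 in RepB-/- and 1.76, 3.54 and 2.68 in WT CPM and whose MEF levels were 708, 665 and 686 in RepB-/- and 306, 521 and 466 in WT. The tissues did not overlap for *F3*, at a log2 difference of -6.41 ± 0.26 (SE, adjusted p = 4.04e-09), nor for *Plat*, at -6.73 ± 0.41 (SE, adjusted p = 7.35e-08). *Serping1* was the member with the smallest excess in liver, 2.97 ± 0.27 (SE, adjusted p = 1.92e-06) on the log2 scale. In CPM its tissues overlapped, with 482 in liver RepB-/- replicate 1 and 498 in MEF RepB-/- replicate 1. *Masp1* and *Pros1* were lower in liver, at -0.70 ± 0.17 and -0.55 ± 0.10 (SE) in the fit. Their mean CPM lay wider apart, 88.7 in liver and 321 in MEFs for *Masp1* and 50.5 and 168 for *Pros1*. The fit scales the 12 libraries together, while CPM, and the fold bounds above, are scaled within each table. The 2 scales therefore give different sizes of tissue difference, also for *F3* and *Serping1*, and the size of a small difference depends on the scaling. Factor D (*Cfd*), the protease of the alternative pathway that adipocytes secrete in quantity, had 2, 0 and 0 in RepB-/- and 6, 2 and 0 in WT counts in liver, and its call was lost when any of 7 libraries was left out.

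The MEF comparison asked how the genotypes differed in fibroblasts. Of the 46 members, 20 had enough counts to be tested, 11 were higher and 6 were lower in RepB-/-, beside 19.4% of the 13306 genes tested that were higher and 19.7% that were lower (edgeR quasi-likelihood test, adjusted p under 0.05). The median log2 fold change of those tested was 0.57, against 0.0003 over all genes, and the 26 members not tested had too few counts. Libraries of the genotypes did not overlap for 11 members higher in RepB-/- and 6 lower, and 26.4% and 25.8% of all genes did the same. Members took 0.291%, 0.266% and 0.237% of the counts in RepB-/- and 0.188%, 0.189% and 0.194% in WT.

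**Figure D2:**
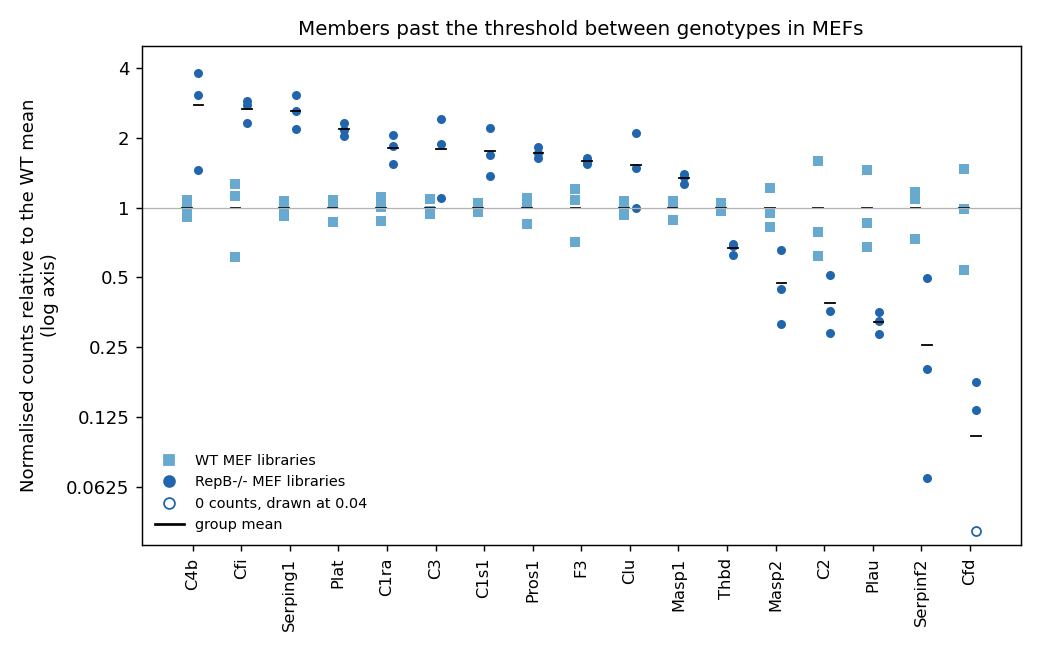
Normalised counts of the 17 members past the threshold in MEFs, each library relative to the mean of the 3 WT libraries, on a log axis with group means as bars; the open circle is a library with 0 counts drawn at 0.04. The 11 genes on the left were higher and the 6 on the right were lower in RepB-/-, and the RepB-/- points of *C4b*, *C3* and *Clu* spread most among the genes that were higher.

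Of the 4 classical pathway members tested in MEFs, 3 were higher and 1 was lower in RepB-/-. *C4b*, cut by C1s to carry the classical pathway on, had 231, 184 and 87.7 in RepB-/- and 65.0, 55.1 and 60.8 in WT CPM in MEFs. The 3 RepB-/- libraries were above the 3 WT libraries and differed much among themselves, with replicate 3 lowest, and the log2 fold change was 1.48 ± 0.24 (SE, adjusted p = 0.000353) by edgeR. *C1ra*, the protease that activates C1s, had 107, 95.8 and 79.8 in RepB-/- and 45.5, 57.9 and 52.1 in WT CPM, without overlap (0.86 ± 0.11 (SE, adjusted p = 6.75e-05)). Its partner *C1s1* had 79.1, 60.4 and 49.2 in RepB-/- and 34.2, 35.6 and 37.5 in WT CPM, also without overlap (0.81 ± 0.14 (SE, adjusted p = 0.000438)). The near-identical copies *C1rb*, *C1s2* and *C4a* could share reads with these 3 genes, so their counts are uncertain. The *C2* protease, by contrast, was lower: it had only 12, 21 and 15 in RepB-/- and 42, 27 and 22 in WT counts, all RepB-/- libraries lay below WT, and the log2 fold change was -1.33 ± 0.42 (SE, adjusted p = 0.0232). That call did not survive the loss of WT replicate 1, nor of replicate 1 or 3 of RepB-/-. The 3 chains of C1q, which macrophages make, had at most 8 counts in any MEF library and were not tested.

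*C3* had 349, 272 and 159.5 in RepB-/- and 140.4, 136 and 157 in WT CPM, with RepB-/- replicate 3 just above the highest WT library, and a log2 fold change of 0.85 ± 0.19 (SE, adjusted p = 0.00337) in edgeR. The lectin pathway's *Masp1* was higher by a smaller amount, with 348, 371 and 383 in RepB-/- and 242, 292 and 287 in WT CPM and no overlap (0.42 ± 0.08 (SE, adjusted p = 0.00124)). *Masp2*, which cuts C4 and C2, was lower, with 23, 16 and 34 in RepB-/- and 40, 35 and 42 in WT counts and -1.06 ± 0.34 (SE, adjusted p = 0.0228). Its call was lost without RepB-/- replicate 1, RepB-/- replicate 2, WT replicate 1 or WT replicate 3. *Cfd* had the largest fold of the members tested in MEFs: it had 3, 0 and 4 in RepB-/- and 21, 10 and 19 in WT counts, every RepB-/- library was below every WT library, and the log2 fold change was -3.16 ± 0.68 (SE, adjusted p = 0.00252). In the terminal group only *C8g* was testable, at 0.52 ± 0.33 (SE), and it was not past the threshold.

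The complement regulators were higher in all 3 members tested. *Vtn*, the other member of this group, had too few counts for a test. It had 2, 1 and 1 in RepB-/- and 18, 5 and 5 in WT counts, the opposite direction. *Serping1*, which inactivates C1r, C1s and the contact proteases, had 498, 426 and 355 in RepB-/- and 149.6, 164 and 174 in WT CPM and a log2 fold change of 1.39 ± 0.11 (SE, adjusted p = 1.14e-06) by edgeR. Each RepB-/- library held more than any WT library by a wide gap. Factor I (*Cfi*), which cleaves C3b and C4b, had 3.67, 3.51 and 2.94 in RepB-/- and 1.60, 1.42 and 0.772 in WT CPM, again without overlap (1.43 ± 0.31 (SE, adjusted p = 0.00282)). Clusterin (*Clu*), which binds the forming pore, had 54.2, 38.1 and 25.5 in RepB-/- and 27.4, 23.9 and 25.6 in WT CPM. Its libraries overlapped, since RepB-/- replicate 3 lay within the WT range, and its call (0.62 ± 0.19 (SE, adjusted p = 0.0217)) was lost without RepB-/- replicate 1, WT replicate 2 or WT replicate 3.

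On the clotting side, *F3* had 708, 665 and 686 in RepB-/- and 306, 521 and 466 in WT CPM, so all RepB-/- libraries were above WT (0.67 ± 0.14 (SE, adjusted p = 0.00213), edgeR). Protein S (*Pros1*), the cofactor of activated protein C, had 224, 212 and 201 in RepB-/- and 105, 128 and 136 in WT CPM and rose without overlap (0.79 ± 0.09 (SE, adjusted p = 2.87e-05)). Thrombomodulin (*Thbd*), the thrombin receptor that activates protein C, went the other way, with 102, 113 and 112 in RepB-/- and 161, 170.1 and 158 in WT CPM and -0.58 ± 0.07 (SE, adjusted p = 4.52e-05). The cofactor *F5* was at 0.47 ± 0.27 and the protease *F7* at 0.27 ± 0.67 (SE), and neither passed the threshold.

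The plasminogen activators moved in opposite directions. *Plat* had 255, 223 and 237 in RepB-/- and 94.8, 119 and 115 in WT CPM and was higher in every RepB-/- library, with a log2 fold change of 1.12 ± 0.09 (SE, adjusted p = 1.29e-06) in edgeR. *Plau* had 67.1, 75.9 and 83.5 in RepB-/- and 343, 159.7 and 202 in WT CPM, so that every RepB-/- library was below WT and WT replicate 1 was far above the other WT libraries (-1.63 ± 0.20 (SE, adjusted p = 5.34e-05)). Antiplasmin (*Serpinf2*), the plasmin inhibitor, had 6, 2 and 15 in RepB-/- and 14, 27 and 30 in WT counts, and its call (-1.96 ± 0.52 (SE, adjusted p = 0.00936)) rests on these few counts. Without RepB-/- replicate 3 its log2 fold change was -2.86.

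Other cells' markers also differed between the MEF genotypes. Of 10 macrophage markers, 8 were above the floor, and they summed to between 134 and 168 CPM in RepB-/- and 54.4 and 73.5 in WT, with the Kupffer cell gene *Clec4f* at 0. All 7 acute phase genes were present, at 142 to 299 CPM in RepB-/- and 89.0 to 96.9 in WT. Most of that was *Saa3*, with 199, 179 and 105 in RepB-/- and 48.6, 52.8 and 53.2 in WT CPM. *Orm2* went the other way, with 0.408, 0.620 and 0.557 in RepB-/- and 0.722, 0.866 and 1.25 in WT CPM. *Lcn2*, *Saa2* and *Orm1* overlapped between the genotypes. Of 8 endothelial markers, 7 were above the floor, at 14.2 to 18.1 CPM in RepB-/- and 31.8 to 38.7 in WT, with *Clec4g* at 0. The 8 fibroblast markers summed to 14137 to 17186 CPM in RepB-/- and 9682 to 12734 in WT. The largest part of the RepB-/- macrophage sum was *Lyz2* (120.0, 103 and 90.8 in RepB-/- and 20.3, 35.4 and 42.7 in WT CPM), while *Cd68* had 8.36, 7.39 and 7.40 in RepB-/- and 16.5, 8.60 and 10.8 in WT CPM. The fibroblast sum was mostly *Col1a1*, which was higher in every RepB-/- library, while *Thy1* was lower in every one. Of 5 megakaryocyte markers, 4 were above the floor, at 9.94 to 11.9 CPM in RepB-/- and 20.9 to 26.1 in WT, with *Gp1bb* at 0. That sum was mostly *Ppbp* and *Itga2b*, while *Pf4* went the other way, with 3.11, 2.48 and 2.18 in RepB-/- and 2.08, 1.24 and 1.96 in WT CPM. All 4 adipocyte markers were above the floor, at 56.5 to 62.0 CPM in RepB-/- and 48.0 to 53.5 in WT. Most of that was *Fabp4*, while *Adipoq* had 0, 0 and 0 in RepB-/- and 0.722, 0.928 and 0.832 in WT and *Plin1* 0.357, 0.207 and 0.101 in RepB-/- and 0.481, 0.680 and 1.01 in WT CPM. Their part in the members' differences was not tested.

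A wider list held 52 clotting and complement genes that are not members: receptors, membrane regulators, further inhibitors and lectins, and enzymes and transporters that process clotting factors. Of these, 37 were tested in MEFs, 13 were higher and 9 were lower in RepB-/-, beside the 19.4% and 19.7% of all genes given above, with a median log2 fold change of 0.03. The largest rises were those of the C1s copy *C1s2* (1.90 ± 0.22, adjusted p = 3.18e-05), the thrombin and plasminogen activator inhibitor *Serpine2* (1.30 ± 0.07, adjusted p = 7.71e-08) and the integrin chain of the complement receptors *Itgb2* (0.96 ± 0.21, adjusted p = 0.00314), on the log2 scale with SE in edgeR. Those that fell most were von Willebrand factor *Vwf* (-2.22 ± 0.38, adjusted p = 0.000498), the thrombin receptor *F2rl3* (-2.14 ± 0.58, adjusted p = 0.00975) and the hepatocyte surface protease hepsin *Hpn* (-1.59 ± 0.49, adjusted p = 0.0197). The last of these rest on few counts. *F2rl3* had 0.051, 0.207 and 0.203 in RepB-/- and 0.642, 0.804 and 0.653 in WT CPM. *Hpn* had 0.459, 0.413 and 0.760 in RepB-/- and 2.81, 0.804 and 1.49 in WT CPM, with WT replicate 1 far above the rest.

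In liver, 45 of 46 members were tested between genotypes and 0 passed the threshold in edgeR, beside 0.0373% of the 16080 genes tested. At an unadjusted p under 0.05 there were 0 members in edgeR, beside 502 of the 16080 genes, and 2 members in DESeq2. In edgeR there were 2 with replicate number as a block, 3 with a term for replicate 1 and 5 with both replicate 1 livers left out. In each of these, 0 passed the threshold. The number over all genes is not given for DESeq2 or these alternatives, so their counts of members have no background here. The members' median log2 fold change was 0.20, with 35 above and 10 below 0, beside 0.01 for all genes. The variation between libraries of a group was 51.2% in this fit (biological coefficient of variation), against 9.06% in MEFs. The median SE of the members' log2 fold changes was 0.34 in liver, or 0.27 with replicate number as a block, and 0.20 in MEFs. Libraries of the genotypes did not overlap for 3 members higher in RepB-/- (*Plg*, *Pros1* and *Vtn*) and for 1 lower (*F7*), where 3.38% and 4.66% of all genes did so. *Plg* had 3984, 3941 and 4359 in RepB-/- and 3049, 3171 and 2911 in WT CPM. *F7*, the protease that joins tissue factor, had 129.6, 136 and 86.5 in RepB-/- and 149, 167 and 152 in WT CPM. Of the 52 other clotting and complement genes, 49 were tested and 0 passed the threshold.

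The largest genotype difference in liver was that of *C9* (chr15:6445327-6498751), the protein that forms the wall of the pore, with 73.7, 1120.4 and 636 in RepB-/- and 26.7, 212 and 221 in WT CPM. Replicate 1 was lowest in each genotype, and the groups overlapped because of it. In each replicate number the RepB-/- liver was above the WT liver, though whether livers of the same number are pairs is not known. The log2 fold change was 1.99 ± 1.09 (SE, adjusted p = 1) in edgeR. With replicate number as a block it was 1.80 ± 0.29 (SE, unadjusted p = 0.000862, adjusted p = 0.297), and with both replicate 1 livers left out, an alternative chosen after seeing the data, it was 2.02 ± 0.35 (SE, unadjusted p = 0.00161, adjusted p = 0.19). Without RepB-/- replicate 2 it was 1.21 ± 1.15 (SE, unadjusted p = 0.338, adjusted p = 0.999), and with a term for replicate 1 as well, also chosen after seeing the data, it was 1.52 ± 0.17 (SE, unadjusted p = 0.000244, adjusted p = 0.228). *C8a*, a chain of C8, had 76.8, 1162 and 673 in RepB-/- and 118, 319 and 357 in WT CPM and 1.27 ± 0.91 (SE, adjusted p = 1), and its estimate fell to 0.50 ± 0.95 (SE, unadjusted p = 0.618, adjusted p = 0.999) without RepB-/- replicate 2.

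That RepB-/- replicate 2 liver, the library with Y-linked counts and few *Xist* counts, was the highest of 6 for 16 of 45 members and the lowest for 2, where 13.7% and 14% of all genes behaved so. It held at least 2 times the next highest library for 2 members, *C6* and *C8b*, as did 0.404% of all genes. *C6*, which joins C5b to start the pore, had 7.62, 119 and 20.3 in RepB-/- and 9.70, 22.4 and 44.7 in WT CPM, so this library exceeded every other liver. *C8b* had 128, 812 and 358 in RepB-/- and 106, 309 and 306 in WT CPM, with the same library on top. The gamma chain *C8g* had 137, 307 and 142 in RepB-/- and 95.8, 219 and 262 in WT CPM, with RepB-/- replicate 2 highest by less.

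**Figure D3:**
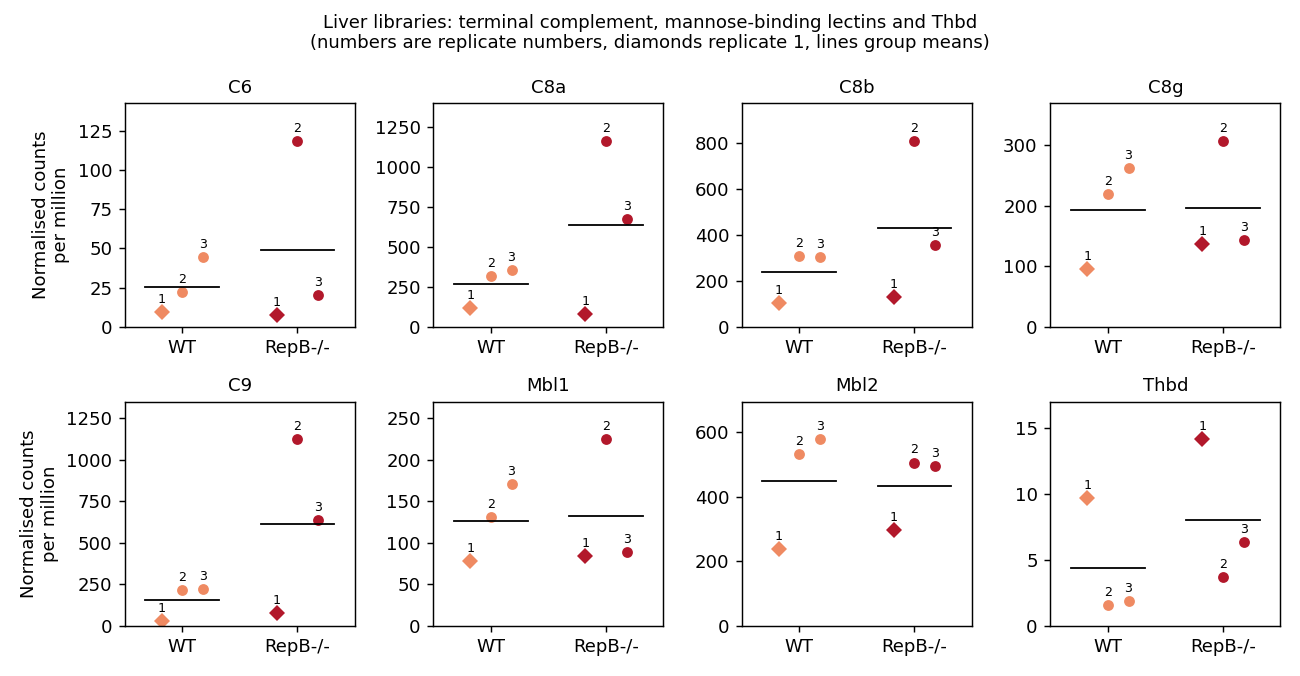
CPM of the 5 terminal complement members, the mannose-binding lectins and *Thbd* in the 6 livers, each axis starting at 0; numbers are replicate numbers and lines are group means. Replicate 1 lies low for *C6*, *C8a*, *C8b*, *C9* and *Mbl2* in both genotypes and high for *Thbd*, and RepB-/- replicate 2 is the highest point for all 5 terminal genes.

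Livers of replicate 1 were then set against those of replicates 2 and 3, with genotype in the fit. Of 45 members tested, 1 was higher and 4 were lower in replicate 1 (edgeR, adjusted p under 0.05), beside 8.41% and 6.98% of all genes. Replicate 1 did not overlap the others for 8 members that were higher and 18 that were lower, and for 23% and 21.3% of all genes. The median log2 difference was -0.16, against -0.0030 over all genes. All 5 terminal members lay below 0, as did all 4 lectin pathway members and all 3 fibrinogen chains.

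*C9* had the largest difference, -3.29 ± 0.34 (SE, adjusted p = 0.0046), and every replicate 1 liver was below every other. *C8a* (-2.43 ± 0.56 (SE, adjusted p = 0.0354)) and *C8b* (-1.85 ± 0.39 (SE, adjusted p = 0.0277)) fell in the same libraries. *C6* (-2.44 ± 0.81 (SE, adjusted p = 0.092)) and *C8g* (-1.01 ± 0.36 (SE, adjusted p = 0.109)) did not overlap either and did not pass the threshold. Mannose-binding lectin C (*Mbl2*), which recognises microbial sugars, had 296, 507 and 494 in RepB-/- and 238, 533 and 578 in WT CPM. Replicate 1 held the lowest values of both genotypes, with a log2 difference of -0.99 ± 0.21 (SE, adjusted p = 0.03) by edgeR. *Mbl1* had 83.6, 224 and 88.8 in RepB-/- and 78.3, 131 and 170.4 in WT CPM, and its RepB-/- replicate 3 was close to replicate 1 (-0.92 ± 0.38 (SE, adjusted p = 0.152)).

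*Thbd* was the member that rose, with 14.1, 3.65 and 6.30 in RepB-/- and 9.68, 1.58 and 1.88 in WT CPM. Both replicate 1 livers were above all others, and the log2 difference was 2.01 ± 0.33 (SE, adjusted p = 0.0143). *Plau* had 2.19, 1.05 and 1.52 in RepB-/- and 4.44, 0.982 and 1.18 in WT CPM, also without overlap, and missed the threshold (1.45 ± 0.41 (SE, adjusted p = 0.0601)). The fibrinogen chains did not pass the threshold. *Fga* had 3706, 7244 and 6129 in RepB-/- and 5607, 5975 and 6512 in WT CPM, with both replicate 1 livers below the others and RepB-/- replicate 1 by the wider margin (-0.49 ± 0.29 (SE, adjusted p = 0.292)). *Fgg* had 2972, 5803 and 7037 in RepB-/- and 3991, 4425 and 4786 in WT CPM, again with both replicate 1 livers lowest (-0.64 ± 0.31 (SE, adjusted p = 0.217)). *Fgb* had 3860.0, 7359 and 7052 in RepB-/- and 6129.7, 5662 and 5711 in WT CPM, and there RepB-/- replicate 1 alone was low, since WT replicate 1 was above the other WT livers (-0.37 ± 0.32 (SE, adjusted p = 0.471)).

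The call of *C9* held when any library was left out, with a log2 difference between -3.58 and -3.03. Those of the other 4 members did not. *C8a* was lost without RepB-/- replicate 1 or 3 or WT replicate 2 or 3, with -1.53 without RepB-/- replicate 1 and -3.58 without WT replicate 1. *C8b* and *Mbl2* were lost without RepB-/- replicate 1 or any WT library, and *Thbd* without RepB-/- replicate 1, WT replicate 1 or WT replicate 3. Without RepB-/- replicate 2, *Thbd*, *Mbl2*, *C8a*, *C8b* and *C9* remained past the threshold and *C6* joined them at -1.64, while its value was -1.79 without RepB-/- replicate 1 and -3.20 without WT replicate 1.

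The summed markers of several other cells moved with replicate 1. All 8 endothelial markers were present and summed to 443 to 489 CPM in replicate 1 and 304 to 359 in the others. Among them *Lyve1*, *Clec4g* and *Fcgr2b* overlapped. All 8 fibroblast and stellate markers were present at 892 to 1349 and 257 to 468 CPM, and *Dcn* and *Lum* overlapped. The erythroid markers overlapped as a sum, at 1627 to 4508 CPM in replicate 1 and 261 to 2250 in the others. The 6 neutrophil markers summed to 49.9 to 576 against 4.37 to 8.52 CPM, and the 5 megakaryocyte markers to 16.0 to 151 against 3.30 to 6.22 CPM. The 10 hepatocyte markers summed to 108893 to 146571 and 132809.8 to 201830.0 CPM, most of it *Alb*. Single hepatocyte markers differed more: *Serpina3k* had 506, 13519 and 8531 in RepB-/- and 791, 8526 and 10370 in WT CPM. *Hnf4a*, *Cyp2e1* and *Fabp1* were also lower in replicate 1 without overlap, *Apoa1* was higher without overlap, and the others overlapped. The part of all these markers in the members' differences was not tested.

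The chains of C1q, the complex that starts the classical pathway, are products of Kupffer cells in liver. *C1qa* had 60.3, 81.8 and 67.2 in RepB-/- and 95.7, 57.4 and 60.5 in WT CPM. *C1qb* had 56.7, 84.8 and 163 in RepB-/- and 90.1, 63.6 and 60.9 in WT CPM, with RepB-/- replicate 3 highest. *C1qc* had 75.4, 91.1 and 98.9 in RepB-/- and 109, 56.8 and 66.0 in WT CPM. For all 3 chains the groups overlapped in both liver comparisons. The 10 macrophage markers summed to between 594 and 1188 CPM, highest in WT replicate 1. Factor B (*Cfb*), an acute phase protease of the alternative pathway, had 1642, 1483 and 830.2 in RepB-/- and 1895, 1268 and 1165 in WT CPM and was also highest in WT replicate 1. That liver had the highest sum of the 7 acute phase genes (13068 CPM, against 4849.9 or less in every other liver), of which *Hp* was 11854. *Hp*, *Lcn2*, *Saa2*, *Saa3* and *Orm2* were highest there, while *Saa1* and *Orm1* were highest in RepB-/- replicate 2. *Orm1* had 1.17, 922 and 733 in RepB-/- and 24.5, 588 and 669 in WT CPM. A link of *Cfb* with these genes was not tested. *C4b* had 1305, 2613 and 1125 in RepB-/- and 1545, 1457 and 1209.6 in WT CPM, with RepB-/- replicate 2 well above the rest.

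The last comparison asked whether genotype differences were larger in 1 tissue than in the other. Of the 19 members tested in both tissues, 0 passed the threshold by the interaction term in edgeR and 5 had an unadjusted p under 0.05, beside 0.27% of the 15208 genes past the threshold with a higher value in liver and 0.118% with a lower one. These percentages count genes past the threshold and are no background for the 5. Over all genes of this fit an unadjusted p under 0.05 was also common. Whether the members exceeded that share was not tested, so the 5 are listed as a description only. In edgeR the 5 were *Cfi* (-1.21 ± 0.36, adjusted p = 0.173), *Serpinf2* (2.27 ± 0.68, adjusted p = 0.175) and *Masp2* (1.24 ± 0.40, adjusted p = 0.205), with SE. The others were *C2* (1.57 ± 0.54, adjusted p = 0.226) and *Serping1* (-1.12 ± 0.51, adjusted p = 0.348). *C4b* (-1.20 ± 0.56, adjusted p = 0.368) and *Plat* (-1.43 ± 0.69, adjusted p = 0.38) were not among the 5. With DESeq2, 2 of the 19 passed the threshold, *Serpinf2* with a higher and *Cfi* with a lower value in liver. With a term for replicate 1 of liver 4 passed, *Serpinf2*, *Thbd* and *Masp2* with a higher and *Cfi* with a lower value in liver. Without WT liver replicate 1, *Plau* and *Thbd* passed. The other 27 members had too few counts for a genotype test in 1 of the tissues and entered this fit through the other tissue. Factor XI (*F11*), a contact protease that activates factor IX, had 0, 0 and 0 in RepB-/- and 4, 4 and 8 in WT counts in MEFs and 116, 111 and 137 in RepB-/- and 114, 109 and 126 in WT CPM in liver. Its livers overlapped, and its WT MEF mean was 2.27 times the floor of 3 counts of the RepB-/- libraries.

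**Figure D4:**
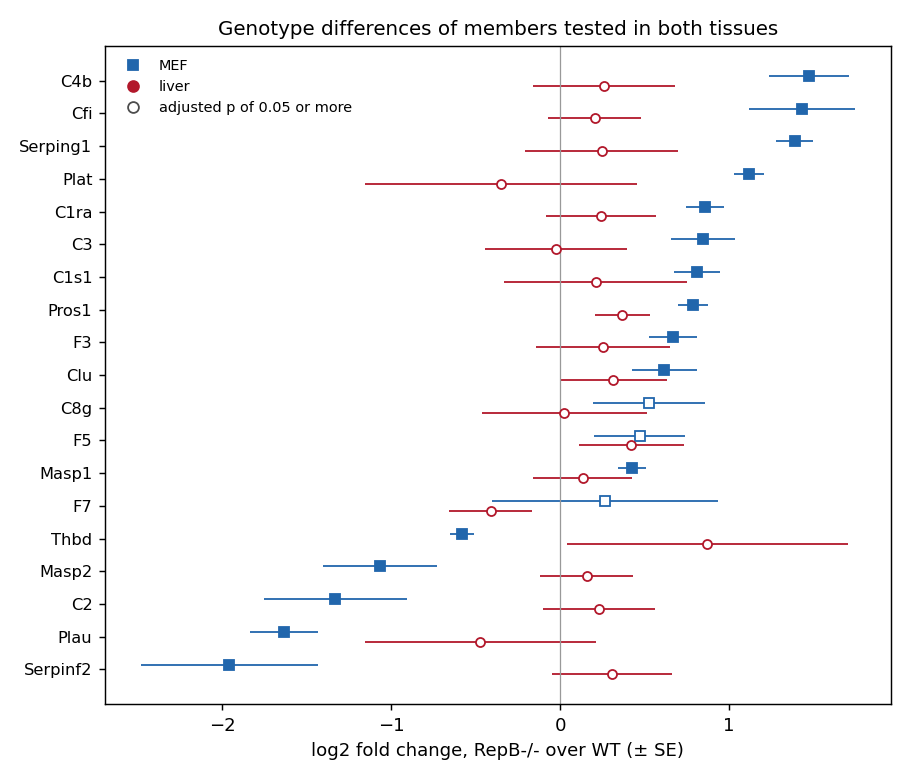
Log2 fold change of RepB-/- over WT with its SE for the 19 members tested in both tissues; squares are MEFs, circles livers, and open symbols did not pass an adjusted p of 0.05. No liver value passed, the liver bars are longer than the MEF bars for most genes, and *Serping1* stood at 1.39 ± 0.11 in MEFs and 0.25 ± 0.45 in liver.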

How the data were processed

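The members, role groups and marker lists were chosen with earlier results of these data known. Per the labels and the paper's methods, mRNA libraries were made. For MEFs they are stated to be stranded and paired-end, with reads trimmed by Cutadapt and aligned with Hisat2. The submitters' notes also list Trim Galore 0.4.1, STAR 2.7.0 and HTSeq 0.12.4. Which tool made which table is not given in the sources used here. The authors deposited whole-number counts per gene without normalization for 12 libraries, and 18 other per-library columns were not used. Brain libraries were not analysed here. In the library names, B was read as RepB-/- and W as WT.

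Counts were fitted across all genes with edgeR 4.0.16 in R 4.3.3 (TMM, filterByExpr, quasi-likelihood test, Benjamini-Hochberg adjustment over all genes tested). The SE of a log2 fold change is its size divided by the root of the test's F. CPM are TMM-scaled within a table. Per-length levels divide CPM by the principal transcript of GENCODE M21. Every call used an adjusted p under 0.05. Members were named where they passed the threshold between genotypes, led their role group in a tissue, or were among the 10 members with the largest fold past the threshold between livers of replicate 1 and the others. *C9*, *C8a* and *C6* in the liver genotype comparison, and *Fga*, *Plau*, *Cfb*, *Plg* and *F7*, were added after their values were seen. Tables and plots were made with Python 3.11.15, pandas 2.3.3 and matplotlib 3.10.9.

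Replicate numbers were checked for pairing by correlating same-numbered libraries after removing genotype means. The correlations were 0.74, 0.41 and 0.39 in liver and 0.01, -0.06 and -0.02 in MEFs. In MEFs the numbers were not taken to pair the samples. In liver they were taken to do so only in the alternative with a replicate block. The main genotype fit of each tissue holds genotype alone and no pairing. Deviations from a genotype mean cancel over its libraries, so a difference shared by both replicate 1 livers also raises the other liver correlations. The liver check therefore cannot show that the other replicate numbers pair samples, and the replicate block in liver rests on an assumption. Fits were tested on simulated data. The alternatives were DESeq2 1.42.0, its size factors in edgeR, no filter on low counts, leaving out each library, a replicate block, a term for replicate 1, no genotype term, WT libraries alone, and the livers without replicate 1.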

Additional observations from a re-analysis of the deposited data

Results flagged for a closer look

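Factor XI (*F11*) passed the test of whether the genotype difference differed between tissues, but it had too few counts to be tested in MEFs and entered the fit through its liver counts, so this is not counted as a difference between tissues. The genotype difference in liver minus that in MEFs was 5.81 ± 0.63 on the log2 scale (SE, adjusted p = 0.0221, edgeR). This fitted value rests on 0, 0 and 0 in RepB-/- and 4, 4 and 8 in WT MEF counts and is no bound. The call held in 10 of 16 alternatives and was lost without WT liver replicate 3, any RepB-/- MEF library, WT MEF replicate 1 or WT MEF replicate 2, with a log2 value between 5.50 and 6.02 when single libraries were left out. Hepatocyte markers in MEFs summed to 0.203 to 0.510 CPM in RepB-/- and 1.11 to 2.17 in WT, with 7 of 10 above the floor and *Fabp1* at 0, and their part in this difference was not tested.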

How the results depend on the processing

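In MEFs the number of members lower in RepB-/- was 6, and it was 10 with DESeq2 and 11 with no filter on low counts, which add genes with few counts such as *F2*, *F11*, *Serpinc1* and *Vtn*. Leaving out single libraries gave 10 to 11 members higher and 4 to 7 lower, with 4 lower without WT replicate 1. With replicate number as a block 11 were higher and 6 lower, and the MEF numbers did not pair the samples. In liver, replicate number as a block changed no call of the genotype comparison, and 0 members passed under any of its 13 alternatives, with DESeq2, a term for replicate 1 and each library left out among them.

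For replicate 1 against the other livers, DESeq2 gave 3 members higher and 9 lower in place of 1 and 4. Leaving out single libraries gave 0 to 2 higher and 1 to 5 lower: 1 lower without RepB-/- replicate 1, WT replicate 2 or WT replicate 3, 2 lower without WT replicate 1, 0 higher without RepB-/- replicate 1, WT replicate 1 or WT replicate 3, and 2 higher without RepB-/- replicate 3. Where a replicate 1 liver was left out, the lone remaining one was assumed to vary like the others. *C9* passed under all 10 alternatives. Between liver and MEF, 39 members were higher in every alternative and 5 to 7 were lower, with 5 in WT libraries alone and 6 to 7 without single libraries. For the difference between tissues, DESeq2 gave 8 members higher and 1 lower and a term for replicate 1 of liver gave 7 and 1, in place of 1 and 0, with members too low for a test in MEFs among them. Leaving out single libraries gave 0 to 4 higher, with 4 without WT liver replicate 1. The cause of these shifts was not tested. Depth limits the members near 3 counts in MEFs, and the spread between livers limits the liver comparison.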

Other observations

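The 26 members that were not tested in MEFs summed to 61, 54 and 26 counts in RepB-/- and to 119, 59 and 71 in WT, over all 26 genes, although the RepB-/- libraries were deeper. Vitronectin (*Vtn*) had 2, 1 and 1 in RepB-/- and 18, 5 and 5 in WT counts, antithrombin (*Serpinc1*) 3, 8 and 2 in RepB-/- and 20, 6 and 15 in WT, prothrombin (*F2*) 1, 0 and 0 in RepB-/- and 3, 7 and 7 in WT and plasminogen (*Plg*) 0, 0 and 0 in RepB-/- and 9, 0 and 1 in WT. WT replicate 1, the shallowest MEF library, held the highest count of *Vtn*, *Serpinc1* and *Plg*. These genes were chosen after their values were seen.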
